A study of Mus musculus with 6 samples.

Results

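The mouse mitochondrial genome is a small DNA circle kept in many copies per cell, and its RNAs were measured here as every row of the expression table whose gene name begins with mt-. This name rule found 37 of 55420 rows: 13 mRNAs, 2 rRNAs and 22 tRNAs. They are all 37 genes that the GENCODE M21 annotation places on the mitochondrial chromosome of GRCm38. By the annotated strand, 28 lie on the plus strand and 9 on the minus strand, the 9 being mt-Nd6 and 8 tRNAs.

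Both strands of this genome are copied by the polymerase Polrmt into long precursors, which are then cut at the tRNAs that lie between most mRNAs and rRNAs. The mRNAs encode membrane subunits of respiratory complexes I, III and IV and of ATP synthase, the rRNAs build the mitochondrial ribosome, and the tRNAs serve translation inside the organelle. All other subunits of these complexes come from nuclear genes. Neighbours are cut from 1 precursor, and their steady-state levels are known to depend also on processing and decay.

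The cells were C2C12, a mouse myoblast line that forms myotubes once serum is lowered. They were grown in DMEM with 10% fetal bovine serum and collected on day 4 after transfer to DMEM with 2% horse serum. The groups were FHL3 KO and WT, with 3 libraries each, and both had the same differentiation treatment, time and cell line. No clone is named for the knockout, so effects of a clone and of the genotype cannot be told apart. Nor is it said whether libraries stem from separate cultures, and p-values therefore cover the spread among these libraries alone, possibly a technical one.

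The targeted gene goes against its label at the RNA level. Fhl3 (ENSMUSG00000032643), which encodes a LIM-domain protein of striated muscle, had 57.2, 53.5 and 58.9 FPKM in libraries labelled FHL3 KO, against 27.8, 30.0 and 33.7 FPKM in WT libraries. FPKM are fragments per kilobase of gene length and per size of the library, and replicates 1, 2 and 3 are always given in that order. The groups did not overlap, and the log2 change was 0.87 ± 0.092 (SE; limma adjusted p = 0.000547). RNA level does not show whether a knockout allele still makes protein. The FPKM summed to between 477577 and 494176 in the libraries labelled FHL3 KO and between 424987 and 473369 in WT libraries, and absolute depth is unknown. Of 10 skeletal muscle markers, 9 rose and none fell, where 19.7% of all genes tested rose and 21.2% fell. The marker counts were the same at an unadjusted limma p under 0.05. The summed level of these markers was 10479 to 11011 FPKM in libraries labelled FHL3 KO, against 4622 to 5191 FPKM in WT libraries. The 6 hepatocyte markers were listed at 0 in every library labelled FHL3 KO and summed to between 0.0208 and 85.0 FPKM in WT libraries, the highest being WT replicate 1, and counts of calls are given without that library too. The 4 markers of adipocytes, the 4 of macrophages and the 4 of endothelium each summed to at most 2.4 FPKM in any library. Of 5 tested fibroblast markers, 1 rose and 2 fell, beside the same 19.7% and 21.2% of all genes tested. Of the neuron markers Tubb3 alone was tested and fell. The part of these differences in the results below was not tested.

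Some mitochondrial genes overlap, which bears on how reads can be assigned. The end of mt-Atp8 and the start of mt-Atp6, both subunits of ATP synthase, share 43 bases on the plus strand. The ends of mt-Nd5 and mt-Nd6, both of complex I, share 14 bases on opposite strands. These stretches are shown 5′ to 3′ from the GENCODE M21 transcripts of GRCm38, with the shared bases in capitals: chrM:7900-7969 and chrM:7927-7996 on the plus strand, chrM:13526-13565 on the plus strand and chrM:13552-13591 on the minus strand.
mt-Atp8 end: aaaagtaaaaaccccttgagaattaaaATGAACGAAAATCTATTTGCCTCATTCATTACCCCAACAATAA
mt-Atp6 start: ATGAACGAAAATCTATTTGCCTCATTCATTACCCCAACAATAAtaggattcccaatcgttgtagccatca
mt-Nd5 end: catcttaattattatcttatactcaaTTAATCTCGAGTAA
mt-Nd6 end: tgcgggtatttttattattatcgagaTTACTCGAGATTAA
The genes mt-Nd4l and mt-Nd4 also overlap, by 7 bases. The sources used here do not give the strand setting of the counting, so RNA of a minus-strand gene cannot be told apart from plus-strand precursor running across it.

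Mitochondrial RNA took a smaller share of the libraries labelled FHL3 KO. All 37 rows together made up 4.62%, 6.18% and 3.98% of the FPKM sum in those libraries, against 8.76%, 8.82% and 8.56% in WT libraries. The groups did not overlap, and WT libraries lay closer together than those labelled FHL3 KO. The mean share was 4.92% ± 1.1 in the libraries labelled FHL3 KO and 8.71% ± 0.14 in WT libraries (SD, n = 3 each, as for all means given). The exact permutation test, two-sided, gave p = 0.1, the smallest that 3 against 3 libraries allow. In bulk samples like these, fewer cells of a type and less RNA per cell cannot be told apart.

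The mRNAs carried nearly all of that difference in FPKM. Their share was 4.35% ± 1.0 in the libraries labelled FHL3 KO and 8.02% ± 0.18 in WT libraries, without overlap. The rRNAs had 0.056% ± 0.018 in the libraries labelled FHL3 KO and 0.102% ± 0.009 in WT libraries, also without overlap. The tRNAs had 0.52% ± 0.073 in the libraries labelled FHL3 KO and 0.595% ± 0.05 in WT libraries, and these groups overlapped (exact permutation p = 0.2). FPKM are scaled to gene length, so these are not shares of reads. With each value multiplied by exon length, the 37 rows made up 1.5% ± 0.31 in the libraries labelled FHL3 KO and 2.56% ± 0.11 in WT libraries, again without overlap.

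**Figure D1:**
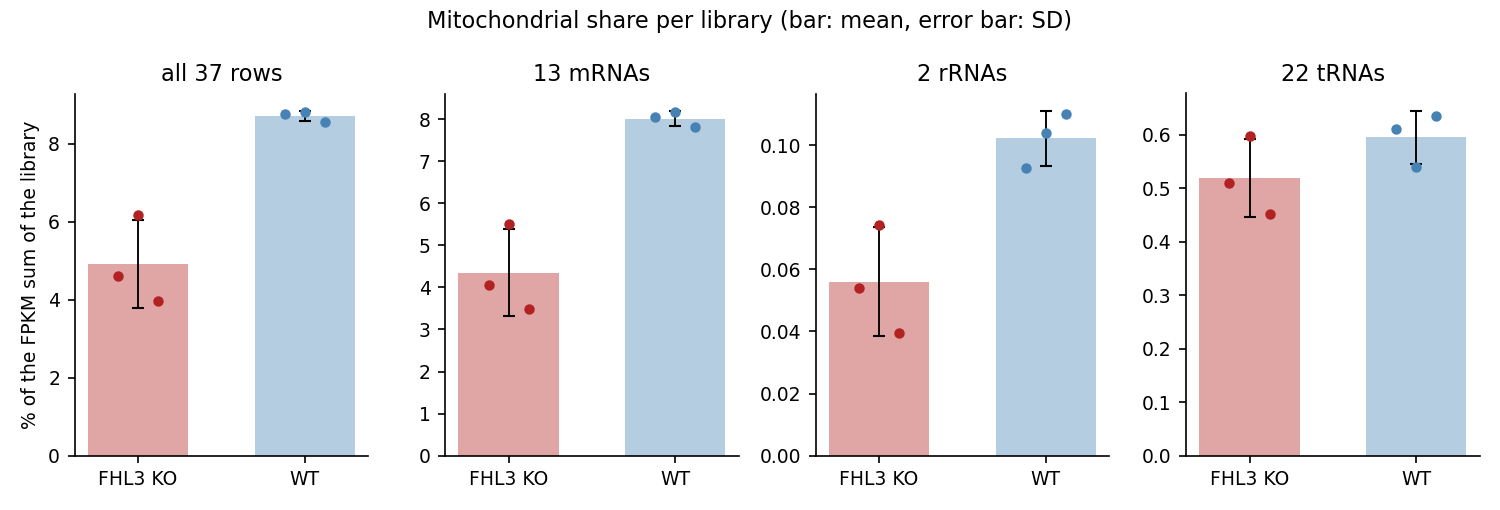
Share of the library's FPKM sum, in percent, taken by all 37 mitochondrial rows and by each RNA class, with libraries labelled FHL3 KO left of WT libraries. Bars are means, error bars the SD over 3 libraries and points single libraries. The groups are apart for all rows (4.92% and 8.71%), mRNAs and rRNAs, and overlap for tRNAs. Each panel has its own axis, which starts at 0.

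Across the genome 17 of the 36 tested transcripts fell, 2 rose and 17 did not pass the threshold. The untested one was the phenylalanine tRNA mt-Tf, with a mean of 0.528 FPKM over all libraries, under the filter of a mean of 1 FPKM in at least 1 group. Calls are limma's at an adjusted p under 0.05 over all 12528 genes tested, of which 21.2% fell and 19.7% rose, or 40.8% in either direction. Groups did not overlap for 20 of the 36, against 53.8% of all genes tested. The median log2 change of the 36 was -0.46, beside a median of -0.005 over all genes tested. Without WT replicate 1, the library with hepatocyte transcripts, 15 fell and none rose by limma, or 17 and 2 at an unadjusted p under 0.05. In the fit without that library, 15.7% of all genes tested fell and 16.2% rose by limma. These shares apply also to the list counts given below without that library.

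By class the fall was mostly in the mRNAs. Of 13 mRNAs, 11 fell and none had a positive change, with a mean log2 change of -0.88 and a range of -1.63 to -0.23. Of the 2 rRNAs, 1 fell. Of 21 tested tRNAs, 5 fell, 2 rose and 14 did not pass, with a median log2 change of -0.20. By strand, 10 of 12 plus-strand mRNAs fell, and so did mt-Nd6, the only mRNA on the minus strand. Correction of every library for its own trend over length and GC content, fitted on nuclear genes, left 11 fallen transcripts and raised the risen to 8, and it moved the mean of the mRNAs to -0.48.

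**Figure D2:**
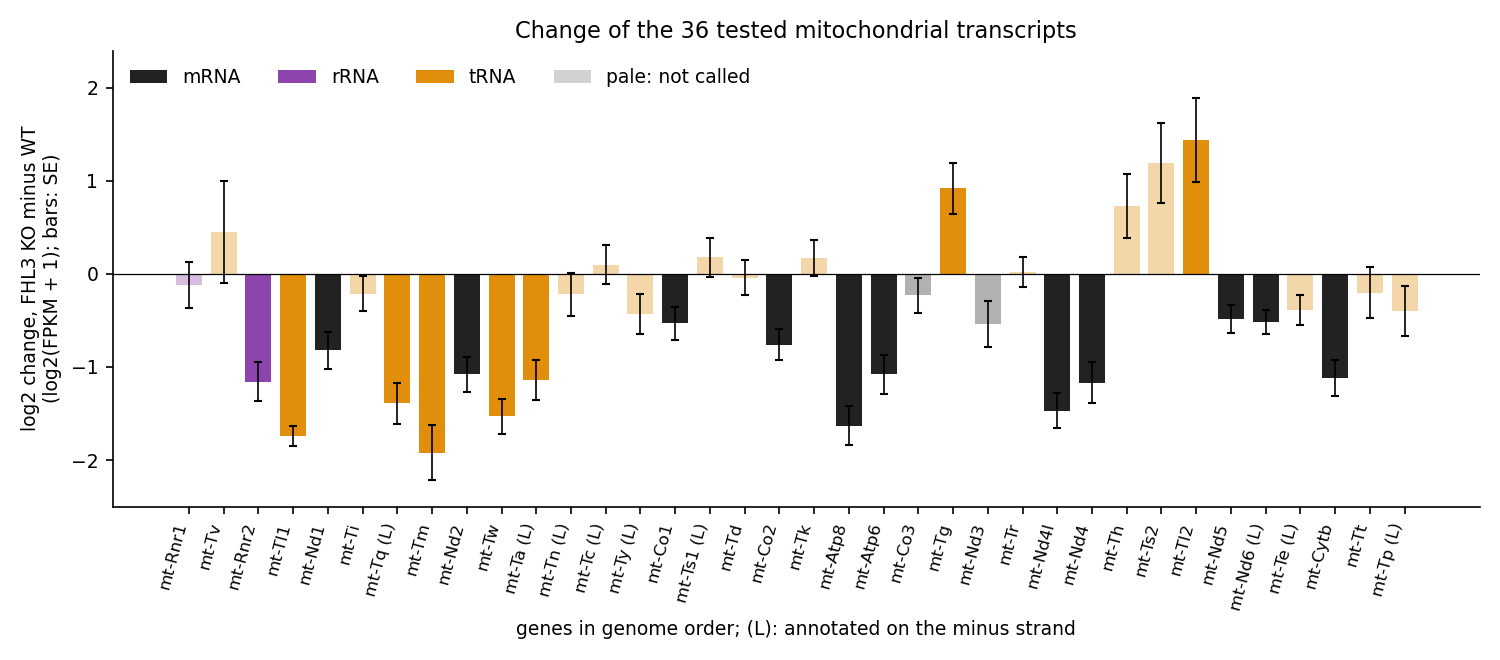
Log2 change of log2(FPKM + 1), FHL3 KO minus WT, of the 36 tested mitochondrial transcripts in genome order, with SE bars. Colour gives the RNA class, pale bars were not called and (L) marks genes annotated on the minus strand. Falls fill most of the stretch between mt-Rnr2 and mt-Ta, with mt-Ti not called, and recur in most mRNAs, while mt-Tg and mt-Tl2 are the 2 called rises.

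Complex I is built around 7 mitochondrial subunits, and 6 of their mRNAs fell. Summed, they had 5604, 7543 and 4943 FPKM in libraries labelled FHL3 KO, against 10414, 11596 and 11294 FPKM in WT libraries. The largest fall was that of mt-Nd4l (chrM:9877-10173), with 439, 628 and 370.5 FPKM in libraries labelled FHL3 KO, against 1233, 1329 and 1317 FPKM in WT libraries. Every WT value was far above every value of the other group, and the log2 change was -1.47 ± 0.19 (SE; limma adjusted p = 0.00117). Its neighbour mt-Nd4 (chrM:10167-11544) had 963, 1439.7 and 759 FPKM in libraries labelled FHL3 KO and 2178, 2392 and 2306 FPKM in WT libraries, a log2 change of -1.17 ± 0.22 (limma adjusted p = 0.00564).

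Near the start of the genome, mt-Nd2 (chrM:3914-4951) had 791, 1096 and 656 FPKM in libraries labelled FHL3 KO, against 1589, 1832 and 1846 FPKM in WT libraries. Its groups were well apart, with a log2 change of -1.08 ± 0.19 (limma adjusted p = 0.0042). The mRNA of mt-Nd1 (chrM:2751-3707) had 1764, 2368 and 1454 FPKM in libraries labelled FHL3 KO and 2753, 3530.1 and 3451 FPKM in WT libraries, a log2 change of -0.82 ± 0.20 (limma adjusted p = 0.0159). Replicate 2 labelled FHL3 KO came nearest to WT in both. The call of mt-Nd1 was lost without replicate 1 labelled FHL3 KO (limma adjusted p = 0.061), without WT replicate 2 (limma adjusted p = 0.0668) and after length and GC correction (log2 change -0.46). With no filter it was lost too (limma adjusted p = 0.107).

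The mRNA of mt-Nd5 (chrM:11742-13565), at 1824 bases the longest of the mRNAs, had 757, 1019.7 and 716 FPKM in libraries labelled FHL3 KO, against 1218, 1162 and 1061 FPKM in WT libraries. The nearest values of the groups lay close together, and the log2 change was -0.48 ± 0.15 (limma adjusted p = 0.0388). Its call passed in 7 of 14 other fits. It was lost in 5 of the 6 fits that left out 1 library, all but that without replicate 2 labelled FHL3 KO, with limma adjusted p of 0.0513 to 0.133, and after length and GC correction (log2 change -0.13). The mRNA of mt-Nd6 (chrM:13552-14070) had 678, 836 and 882 FPKM in libraries labelled FHL3 KO and 1253, 1135 and 1047 FPKM in WT libraries, a log2 change of -0.52 ± 0.13 (limma adjusted p = 0.0179). It was the one mRNA highest in replicate 3 labelled FHL3 KO. Its call passed in 10 of 14 other fits. It was lost without replicate 1 labelled FHL3 KO (limma adjusted p = 0.0705) or WT replicate 2 (limma adjusted p = 0.065), and after length and GC correction the log2 change of mt-Nd6 was -0.06. The remaining mRNA of complex I, mt-Nd3 (chrM:9459-9806), had 212, 156 and 105 FPKM in libraries labelled FHL3 KO and 190.4, 215 and 266 FPKM in WT libraries. These groups overlapped, and its log2 change of -0.54 ± 0.25 did not pass (limma adjusted p = 0.114). Without replicate 1 labelled FHL3 KO its log2 change was -0.78 and passed (limma adjusted p = 0.0376).

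Complex III has a single mitochondrial subunit, cytochrome b. Its mRNA mt-Cytb (chrM:14145-15288) had 1973, 2591 and 1588 FPKM in libraries labelled FHL3 KO, against 4122, 4505 and 4480.3 FPKM in WT libraries. The groups were far apart and the level fell to 46.9% of the WT mean, a log2 change of -1.12 ± 0.19 (limma adjusted p = 0.00375).

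Complex IV, cytochrome c oxidase, has its catalytic core in the products of mt-Co1, mt-Co2 and mt-Co3, and the mRNAs of mt-Co1 and mt-Co2 fell. The mRNA of mt-Co2 (chrM:7013-7696) had 1783, 2295 and 1506 FPKM in libraries labelled FHL3 KO and 2898, 3141 and 3281 FPKM in WT libraries. Its groups were apart, with a log2 change of -0.76 ± 0.17 (limma adjusted p = 0.0118). That call was lost without replicate 1 labelled FHL3 KO (limma adjusted p = 0.0513), without WT replicate 2 (limma adjusted p = 0.0502) and after length and GC correction (log2 change -0.38). With no filter it was lost too (limma adjusted p = 0.0943). The most abundant mRNA per length, mt-Co1 (chrM:5328-6872), had 5947, 7694 and 5487 FPKM in libraries labelled FHL3 KO, against 9044, 9010.1 and 9369 FPKM in WT libraries. Its log2 change of -0.53 ± 0.18 lay just inside the threshold (limma adjusted p = 0.0492) and outside it in 10 of 14 other fits, with the same sign in each. Among these were all fits without 1 library but that without replicate 2 labelled FHL3 KO, with limma adjusted p of 0.0786 to 0.174. The mRNA of mt-Co3 (chrM:8607-9390) had 2045, 2882 and 1811 FPKM in libraries labelled FHL3 KO and 2438, 2554 and 2738 FPKM in WT libraries. Here replicate 2 labelled FHL3 KO was the highest of all 6, and the log2 change of -0.23 ± 0.19 did not pass (limma adjusted p = 0.361) and was 0.12 after length and GC correction. Without that replicate its log2 change was -0.42 and passed (limma adjusted p = 0.0465).

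ATP synthase holds the products of mt-Atp6 and mt-Atp8 in its membrane part. The short mRNA of mt-Atp8 (chrM:7766-7969) had 555, 949.9 and 578 FPKM in libraries labelled FHL3 KO, against 1961, 2194 and 2115 FPKM in WT libraries. This was the largest fall among the mRNAs, to 33.2% of the WT mean, with a log2 change of -1.63 ± 0.21 (limma adjusted p = 0.00117). The overlapping mt-Atp6 (chrM:7927-8607) had 1689, 2340.1 and 1309 FPKM in libraries labelled FHL3 KO and 3382, 3914 and 3709 FPKM in WT libraries, a log2 change of -1.08 ± 0.21 (limma adjusted p = 0.00663). The call of mt-Atp6 was lost with no filter (limma adjusted p = 0.0582).

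**Figure D3:**
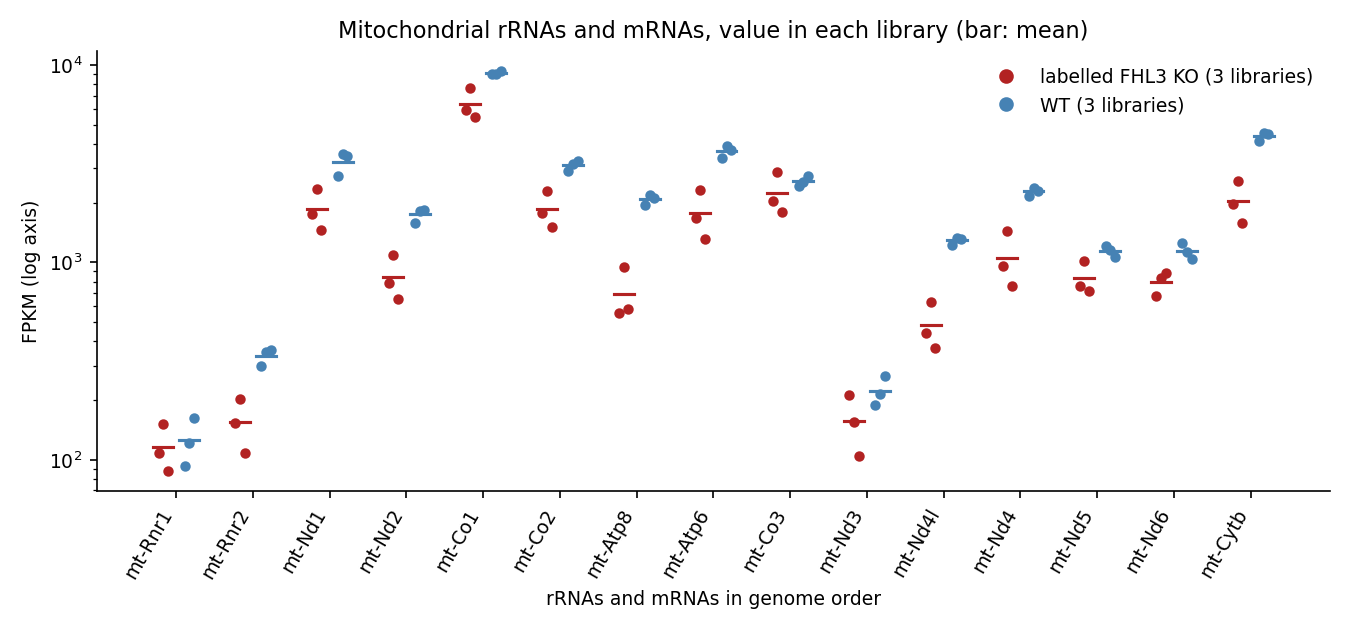
FPKM of the 2 rRNAs and 13 mRNAs in each library, on a log axis, in genome order, with libraries labelled FHL3 KO left of WT libraries. Points are libraries and bars group means. The groups are widely apart for mt-Atp8 and mt-Nd4l (33.2% and 37.1% of the WT mean) and overlap for mt-Rnr1, mt-Co3 and mt-Nd3.

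The libraries labelled FHL3 KO differed among themselves in a way that most mRNAs shared. Replicate 2 was the highest of the 3 for 11 of 13 mRNAs, and replicate 3 the lowest for 11 of 13. The falls of 5 mRNAs, mt-Nd2, mt-Nd4, mt-Nd4l, mt-Atp8 and mt-Cytb, passed in all 14 other fits, which changed the scaling, the filter, the pseudocount, the length and GC trend, the replicate block or the libraries. Over the 13 mRNAs the log2 change ran with neither length nor GC content nor WT level in any tight way, with Spearman's rho of 0.33, 0.11 and -0.13, given as descriptions across genes that share their libraries.

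The make-up of the mRNA pool was compared within libraries. Of 13 mRNAs, 9 had a share of the summed mRNA FPKM that did not overlap between groups, 3 of them higher and 6 lower in the libraries labelled FHL3 KO. For comparison, the FPKM of 53.8% of all genes tested did not overlap. The shares of 1 library add up to a fixed total, so a rise of one forces a fall of others. Those of mt-Co1 were 30.5% ± 1.3 in the libraries labelled FHL3 KO and 25.4% ± 1.0 in WT libraries. Those of mt-Co3 were 10.6% ± 0.28 in the libraries labelled FHL3 KO and 7.15% ± 0.24 in WT libraries, a ratio of 1.48. The share of mt-Nd5 was also higher, at 3.97% ± 0.17 in the libraries labelled FHL3 KO and 3.19% ± 0.35 in WT libraries.

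Among the lower shares, mt-Atp8 took 3.27% ± 0.40 of the pool in the libraries labelled FHL3 KO and 5.80% ± 0.13 in WT libraries, a ratio of 0.56. The share of mt-Nd4l was 2.26% ± 0.12 in the libraries labelled FHL3 KO and 3.59% ± 0.022 in WT libraries, a ratio of 0.63. The other 4 lower shares, of mt-Nd2, mt-Nd4, mt-Atp6 and mt-Cytb, had ratios between 0.78 and 0.82. Each of the 9 had an exact permutation p of 0.1, the smallest possible, and 0.144 when adjusted over the 13. Shares of mt-Nd1 and mt-Co2 overlapped between groups, with ratios of 0.98 and 1.03.

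**Figure D4:**
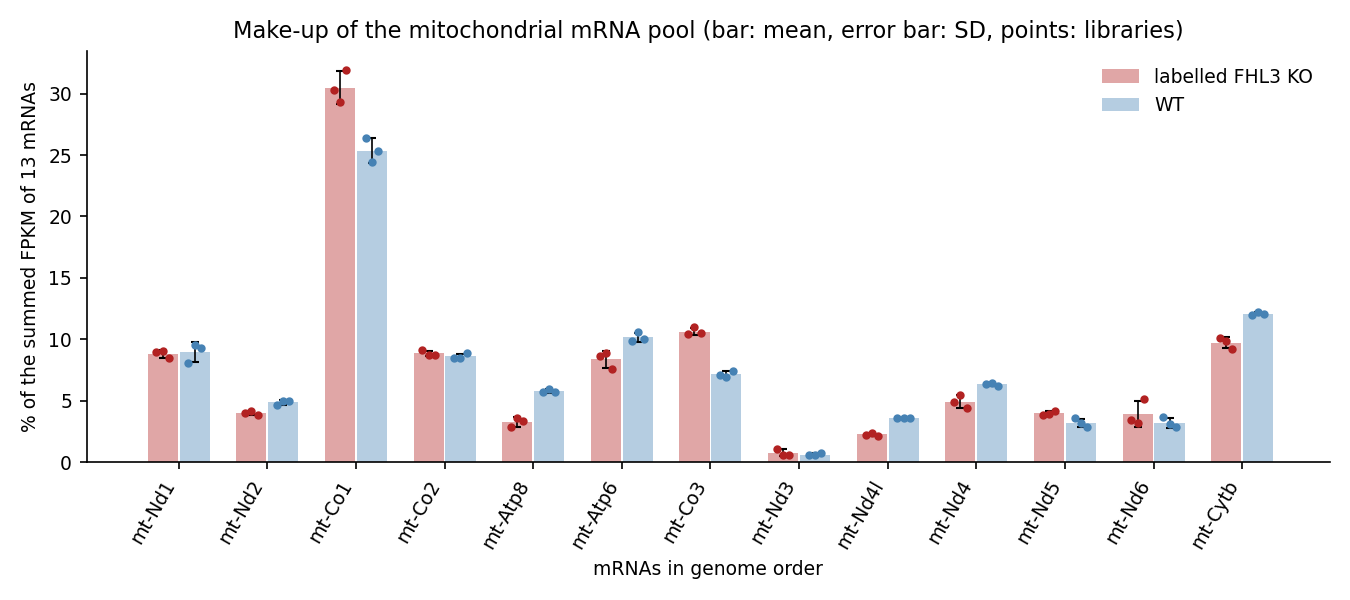
Percent of the summed FPKM of the 13 mitochondrial mRNAs taken by each, with libraries labelled FHL3 KO left of WT libraries. Bars are means, error bars the SD over 3 libraries and points single libraries. The pool of the libraries labelled FHL3 KO holds more mt-Co1 and mt-Co3 and less mt-Atp8, mt-Nd4l and mt-Cytb.

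The rRNAs are cut from the same strand as most mRNAs, and they differed from each other. The RNA of the large ribosomal subunit, mt-Rnr2 (chrM:1094-2675), had 153, 204 and 108 FPKM in libraries labelled FHL3 KO, against 300.1, 351 and 359 FPKM in WT libraries. Its groups were apart, with a log2 change of -1.16 ± 0.21 (limma adjusted p = 0.00497) that passed in all 14 other fits. The RNA of the small subunit, mt-Rnr1 (chrM:70-1024), had 108, 152 and 87.7 FPKM in libraries labelled FHL3 KO and 93.3, 121 and 162 FPKM in WT libraries. These ranges overlapped almost wholly, and the log2 change was -0.12 ± 0.25 (limma adjusted p = 0.728).

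Within a library the log2 ratio of mt-Rnr1 to mt-Rnr2 was -0.41 ± 0.11 in the libraries labelled FHL3 KO and -1.46 ± 0.28 in WT libraries. The groups were apart, with a difference of 1.05 (exact permutation p = 0.1). The summed rRNAs relative to the summed plus-strand mRNAs gave a log2 ratio of -6.24 ± 0.12 in the libraries labelled FHL3 KO and -6.25 ± 0.14 in WT libraries, with an exact permutation p of 0.9. The sources used here do not give the way RNA was enriched. Of 17 listed nuclear RNAs known to lack a poly(A) tail in at least some cells, 5 were listed at 0 in every library, among them Rny1 and Rny3. Only 4, all histone genes, reached the filter of a mean of 1 FPKM in at least 1 group. Of these 4, 1 rose, 1 fell and 2 were not called, where 19.7% of all genes tested rose and 21.2% fell. H1f2, which rose, had 55.3 to 59.7 FPKM in libraries labelled FHL3 KO and 45.3 to 49.0 FPKM in WT libraries. H2bc4, which fell, had 16.7 to 21.1 FPKM in libraries labelled FHL3 KO and 29.3 to 30.8 FPKM in WT libraries.

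The strands gave no difference that held against the spread. The log2 level of mt-Nd6 minus the mean log2 level of the 12 plus-strand mRNAs was -0.72, -0.82 and -0.06 in the libraries labelled FHL3 KO, against -0.69, -0.97 and -1.10 in WT libraries. The groups overlapped, and replicate 3 labelled FHL3 KO stood above all others. The difference of 0.38 had an exact permutation p of 0.3 and was 0.15 without that replicate. The summed minus-strand tRNAs over the summed plus-strand tRNAs gave log2 ratios of 1.20 ± 0.12 in the libraries labelled FHL3 KO and 1.16 ± 0.26 in WT libraries (exact permutation p = 1.0). Highest in the minus-strand sum was mt-Ts1, with means of 966 FPKM in libraries labelled FHL3 KO and 828 FPKM in WT libraries. That gene lies across the end of mt-Co1, and with the strand setting unknown this ratio cannot separate the strands.

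The FPKM ratios of neighbours along the genome differed between groups in most places. Among the 14 pairs of adjacent mRNAs and rRNAs, the log2 ratio of the first to the second did not overlap between groups for 12, where 50.9% of 12436 pairs of nuclear neighbours did not overlap. The median absolute difference was 0.55 for the mitochondrial pairs and 0.39 for the nuclear pairs. Each of the 12 had an exact permutation p of 0.1, and 0.117 when adjusted over the 14 pairs.

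The widest steps were at a few places. Besides the rRNAs, the ratio of mt-Nd3 to mt-Nd4l was -1.62 ± 0.50 in the libraries labelled FHL3 KO and -2.54 ± 0.21 in WT libraries. The ratio of mt-Co2 to mt-Atp8 was 1.44 ± 0.21 in the libraries labelled FHL3 KO and 0.57 ± 0.06 in WT libraries. Between both of these pairs lies a tRNA gene, mt-Tr between mt-Nd3 and mt-Nd4l and mt-Tk between mt-Co2 and mt-Atp8. The ratio of mt-Atp6 to mt-Co3, which meet with no tRNA between them, was -0.35 ± 0.10 in the libraries labelled FHL3 KO and 0.51 ± 0.09 in WT libraries, so the order of these neighbours differed between the groups. FPKM ratios differed too for genes known to stay joined on 1 mRNA. The ratio of mt-Atp8 to mt-Atp6 was -1.36 ± 0.22 in the libraries labelled FHL3 KO and -0.81 ± 0.02 in WT libraries. That of mt-Nd4l to mt-Nd4 was -1.12 ± 0.08 in the libraries labelled FHL3 KO and -0.83 ± 0.02 in WT libraries. The difference for mt-Atp8 and mt-Atp6, which share 43 bases, was -0.55, as large as the median absolute difference of 0.55 over the mitochondrial pairs. The part of read assignment in these ratios was not tested. The pairs whose groups overlapped were mt-Co3 with mt-Nd3 and mt-Nd5 with mt-Nd6.

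The tRNAs moved in both directions: of 21 tested, 5 fell and 2 rose, where 21.2% of all genes tested fell and 19.7% rose. The share of falls was thus near that of all genes. These 5 falls and 2 rises lay in different stretches of the genome, and a link to position was not tested. The sequences of 4 tRNAs, those with the 2 largest falls and the 2 that rose, are shown 5′ to 3′ from the GENCODE M21 transcripts of GRCm38, all on the plus strand, with the anticodon in capitals: the leucine tRNA mt-Tl1 (chrM:2676-2750), the methionine tRNA mt-Tm (chrM:3845-3913), the glycine tRNA mt-Tg (chrM:9391-9458) and the other leucine tRNA mt-Tl2 (chrM:11671-11741).
mt-Tl1: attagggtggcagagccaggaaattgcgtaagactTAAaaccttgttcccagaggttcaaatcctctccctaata
mt-Tm: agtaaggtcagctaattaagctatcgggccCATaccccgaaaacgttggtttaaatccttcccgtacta
mt-Tg: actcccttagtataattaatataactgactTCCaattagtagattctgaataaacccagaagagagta
mt-Tl2: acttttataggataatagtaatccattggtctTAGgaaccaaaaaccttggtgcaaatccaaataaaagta
These genes are 59 to 75 bases long as a class, shorter than usual library fragments. Genes shorter than 150 bases shared a most frequent low value within a library across 2 to 5 of 5 length bins. FPKM of tRNAs are therefore compared between libraries only, not with one another or with mRNAs. The summed ratio by strand and the shares of the FPKM sum above are exceptions and carry this limit.

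The 5 tRNAs that fell all lie between mt-Rnr2 and mt-Co1. The leucine tRNA mt-Tl1 had 103, 130.2 and 111 FPKM in libraries labelled FHL3 KO, against 359.7, 392 and 399 FPKM in WT libraries. With groups this tight the log2 change of -1.74 ± 0.11 had the smallest adjusted p of all mitochondrial transcripts (limma adjusted p = 6.5e-05). The methionine tRNA mt-Tm, which serves both initiation and elongation in mitochondria, had 6.57, 12.2 and 17.8 FPKM in libraries labelled FHL3 KO, against 37.7, 47.4 and 53.0 FPKM in WT libraries. It showed the largest fall of all, with a log2 change of -1.92 ± 0.30 (limma adjusted p = 0.00289).

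The tryptophan tRNA mt-Tw had 23.2, 36.5 and 20.7 FPKM in libraries labelled FHL3 KO, against 70.5, 78.9 and 81.6 FPKM in WT libraries, a log2 change of -1.53 ± 0.19 (limma adjusted p = 0.00115). On the minus strand, the glutamine tRNA mt-Tq had 7.15, 7.93 and 12.6 FPKM in libraries labelled FHL3 KO and 20.4, 24.7 and 31.6 FPKM in WT libraries, a log2 change of -1.39 ± 0.22 (limma adjusted p = 0.00292). The alanine tRNA mt-Ta, also on the minus strand, had 44.1, 37.8 and 72.1 FPKM in libraries labelled FHL3 KO and 98.4, 112 and 121 FPKM in WT libraries, a log2 change of -1.14 ± 0.22 (limma adjusted p = 0.00613). In all 5 the groups were apart, and all but mt-Ta passed in all 14 other fits. The mRNAs on either side of mt-Tm, mt-Nd1 and mt-Nd2, fell by less, with log2 changes of -0.82 and -1.08.

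The other tRNAs of the minus-strand group beside mt-Ta did not pass. For asparagine, mt-Tn had a log2 change of -0.22, for cysteine, mt-Tc had 0.10, and for tyrosine, mt-Ty had -0.43. Replicate 2 labelled FHL3 KO was the lowest of all 6 libraries for these 3, while it was the highest of its group for most mRNAs. Its values were 74.4 FPKM for mt-Tn, 99.9 FPKM for mt-Tc and 53.9 FPKM for mt-Ty.

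Both called rises were weak. The glycine tRNA mt-Tg had 9.77, 16.5 and 9.24 FPKM in libraries labelled FHL3 KO, against 4.63, 4.36 and 8.40 FPKM in WT libraries. Its groups were close but apart, with a log2 change of 0.92 ± 0.27 (limma adjusted p = 0.0307). The leucine tRNA mt-Tl2 had 278, 269.5 and 179.8 FPKM in libraries labelled FHL3 KO, against 76.3, 47.0 and 184 FPKM in WT libraries. Here WT replicate 3 lay within the range of the libraries labelled FHL3 KO, and the log2 change was 1.44 ± 0.45 (limma adjusted p = 0.0363). Each lost its call in 6 of 14 other fits, 4 of them fits that left out replicate 1 or 2 of either group, with adjusted p there between 0.0554 and 0.108.

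The rise of mt-Tl2 was shared in sign by the tRNAs directly before it. The serine tRNA mt-Ts2 had 210.1, 207 and 159 FPKM in libraries labelled FHL3 KO, against 84.3, 41.0 and 163 FPKM in WT libraries (log2 change 1.19 ± 0.43, limma adjusted p = 0.0598). The histidine tRNA mt-Th had 114, 117 and 100.4 FPKM in libraries labelled FHL3 KO, against 73.0, 36.5 and 108 FPKM in WT libraries (log2 change 0.73 ± 0.34, limma adjusted p = 0.125). In all 3, WT replicate 2 was the lowest library and WT replicate 3 stood beside the libraries labelled FHL3 KO. Without WT replicate 3, mt-Ts2 and mt-Th also passed, with adjusted p of 0.00696 and 0.0212. WT replicate 3 was the highest WT library for 18 of all 22 tRNAs. The flanking mRNAs, mt-Nd4 before and mt-Nd5 after this group, had log2 changes of -1.17 and -0.48.

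The 14 tRNAs that did not pass had log2 changes between -0.43 and 1.19. After length and GC correction 6 of them passed as rises: mt-Tc with a log2 change of 0.67, mt-Ts1 with 0.73, mt-Tk with 0.74, mt-Tr with 0.59, mt-Th with 1.30 and mt-Ts2 with 1.76. That correction moved most tRNAs up by nearly the same amount, for example mt-Td from -0.04 to 0.53 and mt-Tk from 0.17 to 0.74. It set their lengths to the edge of the range of nuclear genes, so these rises are not separate results for each tRNA. The serine tRNA mt-Ts1, which lies on the minus strand across the end of mt-Co1, had 829, 1321 and 749 FPKM in libraries labelled FHL3 KO and 777, 771 and 938 FPKM in WT libraries, with a log2 change of 0.18 ± 0.21. The glutamate tRNA mt-Te, next to mt-Nd6, had 325, 364 and 302 FPKM in libraries labelled FHL3 KO and 549.9, 399 and 367 FPKM in WT libraries. Its groups were just apart and its log2 change of -0.39 ± 0.16 did not pass (limma adjusted p = 0.087), but did without WT replicate 3 (limma adjusted p = 0.0481). The proline tRNA mt-Tp had a log2 change of -0.40 and the threonine tRNA mt-Tt -0.20, both with overlapping groups, and mt-Tp passed without replicate 3 labelled FHL3 KO (log2 change -0.69, limma adjusted p = 0.0338) and with the replicate number as a block (log2 change -0.40, limma adjusted p = 0.0365). Of the rest, mt-Tv (valine) had 0.45, mt-Ti (isoleucine) -0.21, mt-Td (aspartate) -0.04, mt-Tk (lysine) 0.17 and mt-Tr (arginine) 0.02.

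Part of the mitochondrial genome has a near-identical copy in the nucleus, which limits what can be said of the members it covers. On chromosome 1, 7 annotated pseudogenes on the minus strand between chr1:24611535-24616197 (GRCm38) mirror chrM:6390-11042. Over their aligned bases 6 of the 7 were identical to the mitochondrial gene. The seventh, Gm29216, matches the end of mt-Co1 over 483 of its 492 bases with 1 mismatch, A1066T, counted from the first base of mt-Co1. The stretches below hold 6 differing bases, the last being A1066T and the others lying before the aligned bases. The stretches where the likeness begins are shown 5′ to 3′ from the GENCODE M21 transcripts of GRCm38, chrM:6381-6441 on the plus strand and chr1:24616137-24616197 on the minus strand, with the differing bases in capitals.
mt-Co1 stretch: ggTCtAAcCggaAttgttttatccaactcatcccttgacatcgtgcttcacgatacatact
Gm29216 start: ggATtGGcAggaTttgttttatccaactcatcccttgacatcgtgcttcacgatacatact
Of all 50-base windows of the mitochondrial transcripts, those found whole in an annotated copy made up 99.5% of mt-Co2, 99.5% of mt-Atp6, 99.9% of mt-Co3, 98.0% of mt-Nd3, 98.8% of mt-Nd4l, 62.2% of mt-Nd4 and 28.7% of mt-Co1. No window of the other 30 members was found, although mt-Atp8 and 5 tRNA genes lie inside the mirrored stretch between the annotated copies.

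For 4 of the 7 copies the FPKM were close to those of the gene they mirror. The ratio of copy to gene lay between 0.99 and 1.01 for Gm28437 and mt-Co3 over the 6 libraries, between 0.98 and 1.0 for Gm28661 and mt-Co2, between 1.01 and 1.03 for Gm10925 and mt-Atp6 and between 1.01 and 1.04 for Gm10222 and mt-Nd4l. For the other 3 it was 1.13 to 1.62 (Gm28438 and mt-Nd3), 0.59 to 0.65 (Gm28439 and mt-Nd4) and 0.32 to 0.47 (Gm29216 and mt-Co1), the last 2 being copies of only part of the gene. Gm29216 had 2818, 3395 and 2149.9 FPKM in libraries labelled FHL3 KO and 2935, 3189 and 3211 FPKM in WT libraries. Its ratio to mt-Co1 was higher in every library labelled FHL3 KO than in any WT library. A difference between parts of mt-Co1 was not tested. The sources used here do not say how reads that match several places were treated, so the level of these mRNAs and of their copies cannot be told apart. Of the copies, Gm10222, Gm28439, Gm10925 and Gm28661 fell, with log2 changes of -1.44, -1.22, -1.10 and -0.75, and so did the genes they mirror. Neither Gm28437 and Gm28438 nor their genes passed. Gm29216, with a log2 change of -0.18 (limma adjusted p = 0.453), did not pass either, whereas mt-Co1 lay just inside the threshold. Genes and copies together made up 7.0% ± 1.7 of the FPKM sum in the libraries labelled FHL3 KO and 12.2% ± 0.2 in WT libraries.

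The mRNAs outside the mirrored stretch also fell. These are mt-Nd1, mt-Nd2, mt-Nd5, mt-Nd6 and mt-Cytb, of which 5 of 5 fell, with a mean log2 change of -0.80. After length and GC correction mt-Nd2 and mt-Cytb still passed, with -0.70 and -0.81, while mt-Nd1, mt-Nd5 and mt-Nd6 had -0.46, -0.13 and -0.06 and did not. With the values of each copy added to its gene, the mean over all 13 mRNAs was -0.86.

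**Figure D5:**
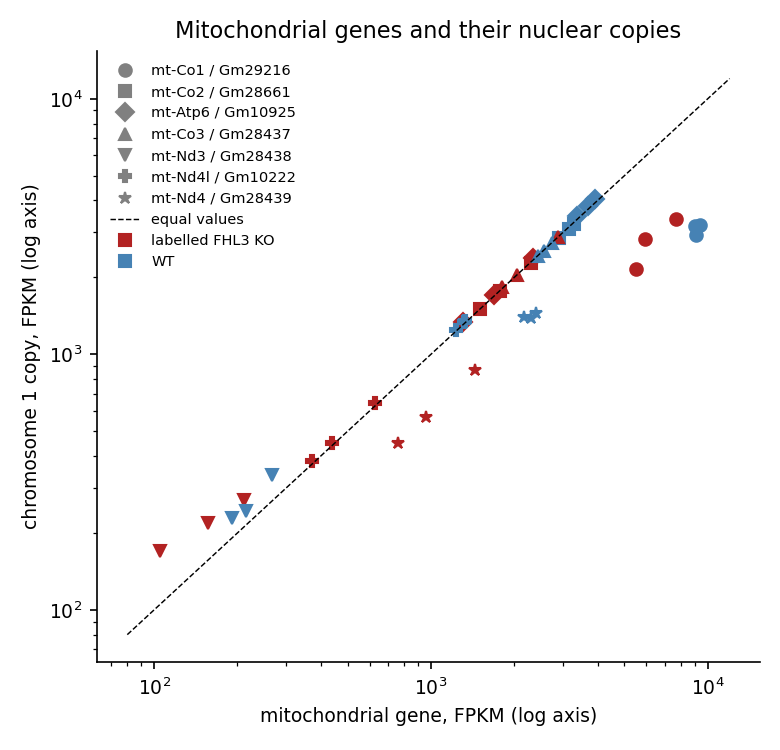
FPKM of the 7 chromosome 1 pseudogenes against FPKM of the mitochondrial gene each mirrors, on log axes, with 1 point per library and pair. The dashed line marks equal values. The pairs of mt-Co2, mt-Atp6, mt-Co3 and mt-Nd4l lie on or close to the line in both groups. That of mt-Nd3 lies above it, and mt-Co1 and mt-Nd4, copied in part, lie below it.

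The nuclear genes that act on mitochondrial DNA were mostly not called. Of 25 tested genes for mitochondrial transcription and replication 4 fell and 1 rose, where 21.2% of all genes fell and 19.7% rose, and their median log2 change was -0.06. The polymerase gene Polrmt had 17.9 ± 1.0 FPKM in libraries labelled FHL3 KO and 18.2 ± 1.2 FPKM in WT libraries (log2 change -0.02, limma adjusted p = 0.854). The transcription and packaging factor gene Tfam had 10.6 ± 0.79 FPKM in libraries labelled FHL3 KO and 12.6 ± 0.67 FPKM in WT libraries (log2 change -0.23, limma adjusted p = 0.0769). The initiation factor gene Tfb2m fell, with 9.48, 9.84 and 8.20 FPKM in libraries labelled FHL3 KO against 13.9, 12.6 and 12.7 FPKM in WT libraries (log2 change -0.47, limma adjusted p = 0.00813).

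The largest fall of that list was of Rrm2b, a ribonucleotide reductase subunit that supplies nucleotides for mitochondrial DNA outside S phase. It had 3.26, 3.72 and 2.29 FPKM in libraries labelled FHL3 KO, against 7.53, 7.77 and 5.81 FPKM in WT libraries (log2 change -0.98, limma adjusted p = 0.00373). Mterf2, a termination factor family member, and Mterf1a, whose known DNA site lies in mt-Tl1, also fell, by 0.50 and 0.60 on the log2 scale, the second at a low level of 1.11 ± 0.52 FPKM in libraries labelled FHL3 KO and 2.17 ± 0.47 FPKM in WT libraries. The mitochondrial thymidine kinase gene Tk2 rose by 0.46. Of 14 other fits, Mterf1a passed in 5, Tk2 in 8 and Mterf2 in 11. Without WT replicate 1, the library with hepatocyte transcripts, the list had 3 falls and no rise, as Tk2 (log2 change 0.36, limma adjusted p = 0.05 after rounding down) and Mterf1a (log2 change -0.51, limma adjusted p = 0.132) missed the threshold. The elongation factor gene Tefm, the helicase gene Twnk and the DNA polymerase gene Polg were not called, with log2 changes of 0.19, 0.03 and 0.15. This list holds no measure of mitochondrial DNA itself.

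Genes for the processing, modification and decay of mitochondrial RNA gave 10 rises and 3 falls among 42 tested, with a median log2 change of 0.13. Of all genes 19.7% rose and 21.2% fell, so the share of rises was near that of all genes. Without WT replicate 1, 10 rose and 4 fell. Under scaling to an equal FPKM sum over nuclear genes these counts were 3 and 5. Pnpt1, the polynucleotide phosphorylase of mitochondrial RNA decay, fell, with 5.49, 6.19 and 4.18 FPKM in libraries labelled FHL3 KO against 11.6, 11.2 and 8.19 FPKM in WT libraries (log2 change -0.85, limma adjusted p = 0.00677). Trmt10c, a subunit of the RNase P that cuts the 5′ ends of tRNAs, had 3.92, 4.86 and 3.10 FPKM in libraries labelled FHL3 KO against 6.41, 7.0 and 6.04 FPKM in WT libraries (log2 change -0.61, limma adjusted p = 0.0142). Its partner Hsd17b10 rose, with 60.5, 46.9 and 63.7 FPKM in libraries labelled FHL3 KO against 28.9, 36.9 and 40.8 FPKM in WT libraries (log2 change 0.67, limma adjusted p = 0.0131).

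Trnt1, which adds the CCA end to tRNAs, fell by 0.64 on the log2 scale. The rise with the smallest adjusted p was that of the pseudouridine synthase gene Trub2, with 12, 13 and 12 FPKM in libraries labelled FHL3 KO against 7.88, 8.05 and 8.0 FPKM in WT libraries (log2 change 0.57, limma adjusted p = 0.00195). The FASTK family member Tbrg4 and the RNA methyltransferase gene Nsun2 rose by 0.34 and 0.36. The gene of the 3′ nuclease Elac2, the poly(A) polymerase gene Mtpap, the helicase gene Supv3l1 and the genes of the mRNA-binding pair Lrpprc and Slirp were not called, with log2 changes of 0.18, 0.01, -0.02, 0.23 and -0.28.

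Among listed nuclear genes of the same complexes rises were found and no falls. Of 30 tested 17 rose and none fell by limma, where 19.7% of all genes rose and 21.2% fell, and none fell at an unadjusted p under 0.05. Their median log2 change was 0.38, and 8 rose at an adjusted p under 0.01. Without WT replicate 1, 14 rose, and under scaling to an equal FPKM sum over nuclear genes 12 rose. Among the 13 that did not pass, Cox6c had a log2 change of -0.54, Cox7a1 -0.61, Atp5b 0.01 and Uqcrb 0.05. By complex as listed, 5 of 8 rose for complex I, 4 of 6 for complex III, 4 of 8 for complex IV and 4 of 8 for ATP synthase. Ndufa4, which did not pass, was counted under complex I. In complex I, Ndufs3 had 96.8, 86.9 and 97.3 FPKM in libraries labelled FHL3 KO, against 54.1, 61.1 and 66.8 FPKM in WT libraries (log2 change 0.62, limma adjusted p = 0.00284). In complex III, the iron-sulfur protein gene Uqcrfs1 had 133, 122 and 137 FPKM in libraries labelled FHL3 KO, against 84.3, 82.2 and 85.7 FPKM in WT libraries (log2 change 0.63, limma adjusted p = 0.000985). In complex IV, Cox4i1 had 499, 433 and 561 FPKM in libraries labelled FHL3 KO, against 234, 286 and 333 FPKM in WT libraries (log2 change 0.81, limma adjusted p = 0.00542). In ATP synthase, Atp5o had 298, 291 and 318 FPKM in libraries labelled FHL3 KO, against 185, 196 and 216 FPKM in WT libraries (log2 change 0.61, limma adjusted p = 0.00221). These 4 were named for small p values in their lists, and their groups did not overlap, as for 53.8% of all genes tested.

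Genes used as signs of mitochondrial mass and protein quality control were mixed. Of 15 tested, 5 rose and 1 fell, where 19.7% of all genes rose and 21.2% fell, with a median log2 change of 0.24. Citrate synthase, Cs, had 127, 134 and 134 FPKM in libraries labelled FHL3 KO and 130.4, 152 and 144 FPKM in WT libraries, which overlapped (log2 change -0.11, limma adjusted p = 0.331). The outer membrane import receptor gene Tomm20 rose, with 32.5, 36.4 and 33.3 FPKM in libraries labelled FHL3 KO against 20.5, 19.2 and 21.2 FPKM in WT libraries (log2 change 0.72, limma adjusted p = 0.000729). The prohibitin gene Phb and the protease gene Spg7 rose by 0.39 and 0.36, and the chaperonin gene Hspd1 fell by 0.38 (limma adjusted p = 0.0135). Without WT replicate 1, 4 rose and 1 fell, and under scaling to an equal FPKM sum over nuclear genes 2 rose and 2 fell.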

How the data were processed

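RNA was sequenced from 3 libraries labelled FHL3 KO and 3 WT libraries of C2C12 cells. The deposited table holds decimal values per gene, read from the values as FPKM made by the authors, since the column sums differ between libraries and are no fixed total. Total RNA was isolated with Trizol, per the labels' protocols. Build mm10 and the tools HISAT2 2.2.1, featureCounts 2.0.1, Trim Galore 0.6.6 and DESeq2 1.28.1 were used, per the submitters' processing notes, which give no roles. The sources used here give no annotation, strand setting or treatment of multiply mapped reads. Depth is unknown, so no counting interval is given.

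Of 55420 rows, 7 with 3 repeated gene IDs were left out. Genes whose mean reached 1 FPKM in either group were fitted as log2(FPKM + 1) in R 4.3.3 by limma 3.58.1 (two-sided moderated test, mean-variance trend), with Benjamini-Hochberg adjustment over 12528 genes and a threshold of 0.05. Fold changes on this scale understate those of low genes. Single ratios and shares were compared by exact two-sided permutation in scipy 1.17.1. Gene positions, lengths and sequences came from GENCODE M21, which held 94% of the IDs. The length and GC correction used splines with 5 degrees of freedom and covered 99.7% of tested genes. Lengths and GC contents outside the range of most nuclear genes were set to the edge of that range. The tRNAs were therefore not corrected at their own length. Steps were tested on simulated data.

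The members, gene lists, tests and alternatives were chosen with earlier results of these data known. The text names every mt- gene, Fhl3, 14 fixed genes of mitochondrial transcription and RNA processing, and from each other list genes among its 4 smallest p values. Trnt1, Mterf1a, Cs, Tubb3, Cox6c, Cox7a1, Atp5b, Uqcrb, Rny1 and Rny3 fall outside this rule and were picked with values in view. The results were recomputed with a pseudocount of 0.1, without the filter, with quantile, equal-sum and median-of-ratios scaling, length and GC correction, the replicate number as a block, a threshold of 0.01 and leaving out each library.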

Additional observations from a re-analysis of the deposited data

How the results depend on the processing

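The mean log2 change of the mitochondrial mRNAs stayed below 0 in every fit, from -1.05 to -0.74 over fits without 1 library, and was -0.48 after length and GC correction. The difference in mitochondrial share, -3.79 percentage points, was -4.42 to -3.31 without 1 library, -1.06 with values weighted by length and -5.16 with the nuclear copies. Of the members, 17 fell and 2 rose. These counts were 11 and 0 with no filter, 11 and 8 with the length and GC correction, 17 and 1 with quantile normalization, 20 and 1 with an equal FPKM sum over nuclear genes, and 12 to 18 and 0 to 4 without 1 library. At a threshold of 0.01 none rose. In the fits by limma with no rise, 2 to 3 rose at an unadjusted p under 0.05. By library, 13 fell without replicate 1 labelled FHL3 KO, 18 without its replicate 2, 16 without its replicate 3, and 15, 12 and 16 without WT replicates 1, 2 and 3. None rose without FHL3 KO replicates 1 or 2 or WT replicates 1 or 2, and 4 rose without WT replicate 3. The cause was not tested.

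Scaling to an equal FPKM sum moved the median of all genes to -0.1 and the share of calls that rose to 36.1%, against 48.2%. With the sum over nuclear genes alone these were -0.15 and 29.2%. For mitochondrial transcription and replication genes, 1 rose and 4 fell, and the counts were 0 and 2 with no filter, 0 and 7 with the nuclear sum, 0 and 2 at 0.01, and 0 to 2 and 2 to 5 without 1 library. For RNA processing, 10 rose and 3 fell, and the counts were 5 and 5 with the equal sum, 3 and 5 with the nuclear sum, 3 and 1 at 0.01, and 4 to 10 and 2 to 4 without 1 library, with 1 fall with no filter. For quality control and mass, 5 rose and 1 fell. The rises were 3 with no filter, quantile normalization, the equal sum, length and GC correction or the 0.01 threshold, 2 with the nuclear sum, and 3 to 5 without 1 library. The falls were 2 with quantile normalization or the nuclear sum, 0 at 0.01, and 0 to 1 without 1 library. Of the nuclear subunits, 17 rose, 8 at 0.01 and 10 to 19 without 1 library, where 0 to 1 fell. The rises were 14 with the equal sum and 12 with the nuclear sum, quantile normalization or no filter. With the equal sum 13.4% of all genes tested rose and 23.7% fell.

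Without 1 library the difference in mt-Nd6 against plus-strand mRNAs was 0.15 to 0.53, that of the rRNAs -0.07 to 0.08, that of Fhl3 0.81 to 0.94, and 12 to 13 neighbour pairs did not overlap. Transcripts that were not called changed sign as follows. After length and GC correction mt-Rnr1 had 0.27, mt-Ti 0.36, mt-Tn 0.35, mt-Ty 0.14, mt-Td 0.53, mt-Co3 0.12, mt-Te 0.18 and mt-Tt 0.38. The tRNAs among these were moved by nearly the same amount. With quantile normalization mt-Tc had -0.07, mt-Ts1 -0.07 and mt-Td 0.08. With the equal sum mt-Tc had -0.0049 and mt-Tr -0.06, and with the nuclear sum -0.06 and -0.11. Without 1 library the ranges were -0.33 to 0.09 for mt-Rnr1, -0.41 to 0.06 for mt-Tn, -0.13 to 0.33 for mt-Tc, -0.07 to 0.34 for mt-Ts1, -0.22 to 0.09 for mt-Td, -0.12 to 0.13 for mt-Tr and -0.49 to 0.12 for mt-Tt.

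Replicate numbers do not pair the samples: deviations of libraries of the same number correlated at -0.127, -0.0626 and 0.316. With the replicate number as a block, 4759 genes were called against 5112, the members had 17 falls and 2 rises, with mt-Co1 not called (limma adjusted p = 0.0931) and mt-Tp called (limma adjusted p = 0.0365), and 1 nuclear subunit fell. The mRNA mean was -0.88 under that block. Unknown depth and 3 libraries a group limit all values, and low tRNAs most.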
